A study of Mus musculus with 6 samples.

Results

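Proliferating cancer cells were one of 19 classes into which the authors sorted single cells from mouse prostate tumours. Their members were the cells that carry this class name in the deposited cell table, 140 of 5749 cells, or 2.44%, and they made up the whole of deposited cluster 14. The tumours were grown in C57Bl6 mice from PPS-ICBR cells, a prostate cancer line that resists immune checkpoint blockade. Cells were taken from the Percoll layer in which leukocytes collect, and the cancer cells measured are those found there. The 4 groups had 3 tumours each. SD tumours came from mice on standard diet, and BD tumours from mice whose chow was mixed with 1,3-butanediol, a precursor of ketone bodies. ICB tumours came from mice given 0.2 mg of PD-1 and CTLA-4 antibodies biweekly, listed in the cell table under standard diet, and BD+ICB tumours from mice given both the diet and the antibodies. SD and BD cells shared one gene library and ICB and BD+ICB cells the other, with a hashtag antibody marking each tumour, so that blockade and library cannot be told apart. The labels give no age for the mice, and they do not say whether each tumour came from a mouse of its own, so p-values measure the spread between these tumours only.

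A dividing cell copies its DNA in S phase and separates the copies in mitosis, and a proliferating class is recognised by transcripts of those steps, such as Mki67 and Top2a. A tumour cell can be seen by CD8 T cells through MHC class I, a heavy chain such as H2-K1 or H2-D1 joined to beta-2-microglobulin. The peptide it holds is cut by the proteasome, helped by the activator subunits Psme1 and Psme2, and is carried into the endoplasmic reticulum by the Tap1 and Tap2 transporter. Interferon-gamma, a cytokine made by T and NK cells, is known to raise the transcripts of this route.

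The name of the class was checked against its markers, in CPM, the UMIs of a gene per 1000000 UMIs of a class. Krt8, a keratin of simple epithelium, stood at 827 CPM here, at 948 in the mesenchymal class, at 13.4 in proliferating immune cells and at 24.5 in the other 17 classes. Tm4sf1, a membrane protein of the tetraspanin superfamily, stood at 877, 473, 9.94 and 16.1 CPM in the same order. Crabp1, a retinoic acid binding protein, stood at 1400, 1187, 24.0 and 31.0 CPM. The 3 markers were therefore shared with the mesenchymal class. Mki67, which coats mitotic chromosomes, stood at 219 CPM against 35.4 in mesenchymal cells and 458 in proliferating immune cells, and Top2a, the topoisomerase of dividing cells, at 359 against 38.2 and 521. Cells of at least 5000 UMIs were also thinned to 5000, and shallower cells were left out. Of the class, 58.6% of 140 cells then had an Mki67 UMI, against 16.9% of 201 mesenchymal cells and 79.7% of 158 proliferating immune cells. In the other 17 classes, proliferating immune cells included, it was 10.5% of 3343 cells. Before thinning the shares in all cells of the class and all mesenchymal cells were 95% and 35.7%. All of these comparisons between classes are descriptions, because the classes were made from the same genes.

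Transcripts of the reporters EGFP and tdTomato, which the authors added to the reference, were found almost wholly in the same pair of classes. EGFP stood at 3.64 CPM in proliferating cancer cells and 4.06 in mesenchymal cells, against 0.131 in the other 17 classes, and tdTomato at 7.21, 7.14 and 0.0874. Of the 140 cells, 81 had a UMI of either reporter, 24 of both, 15 of EGFP only and 42 of tdTomato only. Listed transcripts of prostate epithelium were mixed. Of 17 luminal genes in the counts, 8 had a mean under 1 CPM over the tumours and 5 a mean over 20. Of 11 basal genes, 7 were under 1 and 3 over 20. Krt8 stood at 827 CPM, as above, and Krt18, another keratin, at 81.5, with a UMI in 70.7% of the cells. Other genes were near 0. Epcam, an epithelial adhesion molecule, had 9 UMIs in all and Cdh1, or E-cadherin, had 6, while Elf3, Ehf, Prom1, Psca and the basal keratin Krt5 had 0. The cells also held Vim, the mesenchymal intermediate filament, at 4857 CPM, close to the 4492 of mesenchymal cells. Col1a1, a fibrillar collagen chain, stood at 479 CPM against 2096 there. Across 8433 genes the log profile of the class had a Pearson r of 0.853 with mesenchymal cells, 0.671 with proliferating immune cells and 0.704 with all other cells, a description across genes that are not independent.

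Beside the cell cycle, the gene that stood out was Fst. Follistatin, its product, is a secreted protein that binds activins. Fst had the highest ratio to the other cells of the same tumours, 28.0, among genes of at least 100 CPM. The next 9 were Pbk, Ccnb1, Cdc20, Anln, Cenpf, Cenpe, Cdk1, Prc1 and Hmga2, with ratios from 16.8 down to 11.3. Pbk is a mitotic kinase, Ccnb1 and Cdk1 form the kinase that starts mitosis, Cdc20 activates the complex that ends it, and Hmga2 is a chromatin protein of embryonic and tumour cells. Hmga2 stood at 233 CPM against 92.0 in mesenchymal cells, and Fst at 640 against 104, with 7.52 in the other 17 classes. Against mesenchymal cells alone the ratio of Fst was 5.74, below those of Pbk (9.65), Ccnb1 (8.45) and Cenpe (11.8), among others. The contrast of Fst with the other cells varied by tumour, from 131 against 23.3 CPM in SD 2 to 1587 against 8.66 in BD+ICB 1.

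**Figure D1:**
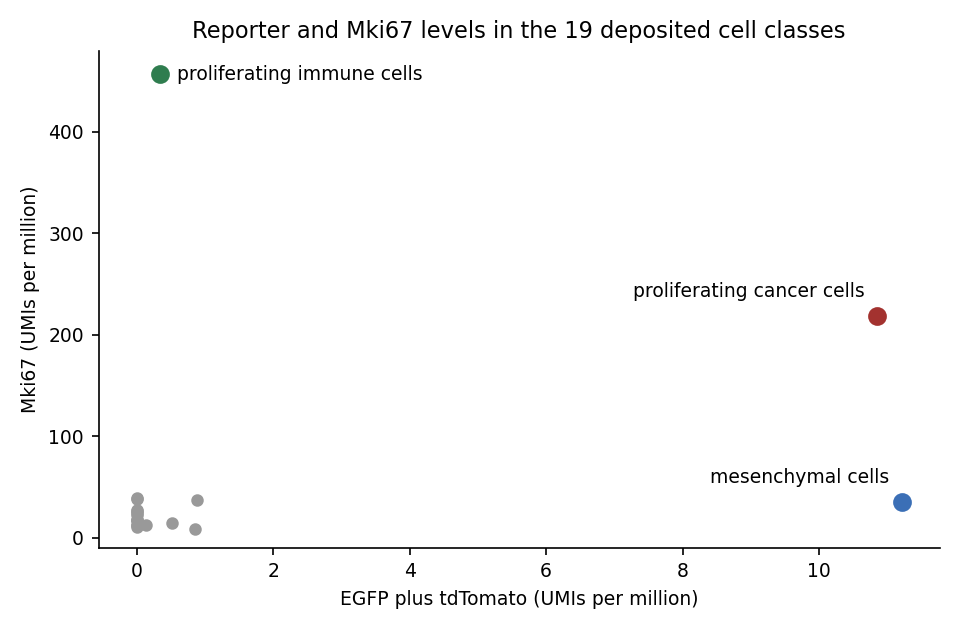
Reporter transcripts and Mki67 in the 19 deposited classes. The x axis gives the summed EGFP and tdTomato level and the y axis the Mki67 level, both in CPM of the class, and each point is one class. Proliferating cancer cells lie with mesenchymal cells on the reporter axis. On the Mki67 axis, at 219 CPM, they lie between mesenchymal cells (35.4) and proliferating immune cells (458).

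The members held 22.5% of all UMIs in the series. Their median was 108620.5 UMIs per cell (range 7228 to 280903), while the medians of the 18 other classes ran from 2393 to 21886. Median UMIs per tumour ranged from 61792 to 70511 in SD, from 120545 to 121658 in ICB and from 137440 to 168340 in BD+ICB, so depth moved with the groups. At least 1 UMI of Ptprc, the leukocyte gene CD45, was found in 63 cells (45%), yet after thinning to 5000 UMIs the share was 4.29%, against 24.9% of mesenchymal cells and 87.9% of the other classes. Leukocyte RNA also moved with the groups. The summed level of 10 neutrophil markers ranged from 1052 to 2166 CPM in SD, from 72.1 to 770 in ICB and from 11.8 to 79.6 in BD+ICB. That of 12 macrophage markers ranged from 306 to 1774, from 272 to 1087 and from 67.0 to 428, and that of 10 general leukocyte markers from 663 to 1032, from 279 to 856 and from 32.9 to 435. The 12 T and NK cell markers summed to between 1.98 and 72.1 CPM in every tumour with members, and none of the markers on these 4 lists was at 0 in the class. The part of depth and leukocyte RNA in the results that follow was not tested beyond the values given. Of the 140 barcodes, 110 also occurred in the matrix of the other library. All 110 were at least 20 times deeper in their own library, and 0 were a deposited cell of the other.

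Fewer proliferating cancer cells were deposited from tumours of butanediol-fed mice, but the difference did not pass the test once adjusted. They were 18, 9 and 13 cells in SD tumours 1 to 3, or 4.33%, 3.24% and 2.50% of the deposited cells of each tumour. In BD tumours they were 2, 0 and 0 cells, or 0.660% in BD 1, 0 of 70 cells in BD 2, which allows a share of up to 4.29%, and 0 of 117 in BD 3, which allows up to 2.56%. In ICB tumours they were 36, 16 and 17 cells, or 4.33%, 2.81% and 1.86%, and in BD+ICB tumours 12, 11 and 6 cells, or 2.10%, 1.69% and 1.18%. The ranges of SD and BD did not overlap, while those of ICB and BD+ICB did.

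The SD group had a mean of 3.35% ± 0.921 (standard deviation, n = 3), against 0.220% ± 0.381 for BD. ICB had a mean of 3.00% ± 1.24, against 1.66% ± 0.461 for BD+ICB. The mean difference of butanediol-fed from other tumours over both libraries was -2.24 percentage points, with a two-sided exact permutation p of 0.01 within library and 0.095 after Benjamini-Hochberg adjustment over 19 classes. Within the first library the difference was -3.13 points and within the second -1.34, with exact p values of 0.1 and 0.2, where 0.1 is the smallest that 3 against 3 allows. The diet difference did not itself differ between libraries past the threshold (1.79 points, exact permutation p = 0.33). ICB and SD differed by -0.353 points (exact permutation p = 0.8). A share of cells depends on every other class: without neutrophils in the total the diet difference was -3.86 points (adjusted exact p = 0.0475), and as a share of cancer and mesenchymal cells alone it was 0.360 points (exact p = 0.975), a mean of -14.9 points in the SD and BD library and 15.6 in the other (exact p = 0.3 in each, and 0.055 for their difference). Tumours were listed at sizes from 870 to 2348 in SD, 172 to 203 in BD, 289 to 1116 in ICB and 23 to 90 in BD+ICB, with no unit, and the part of size in the shares was not tested.

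All deposited cells had over 500 hashtag counts, and many droplets lay at or under this limit. A re-assignment of tumours from the deposited hashtag counts, without that limit, gave 878 droplets of the class. Of these, 754 were not among the deposited cells and were named by their nearest deposited neighbours. The rest were deposited members, which kept their name. The 878 were 143, 45 and 89 droplets in SD tumours 1 to 3, 72, 6 and 15 in BD, 192, 55 and 62 in ICB, and 66, 35 and 98 in BD+ICB. Their shares of all droplets were 12.3%, 8.05% and 7.49% in SD, 9.33%, 3.35% and 5.81% in BD, 15.3%, 8.26% and 6.04% in ICB, and 7.74%, 4.28% and 13.4% in BD+ICB. The groups of each library overlapped here, and the diet difference of -2.26 points had an exact permutation p of 0.305. Median UMIs per tumour in the re-assigned droplets of the class ranged from 11306 to 13446 in SD and from 12725 to 48415 in BD. In ICB the range was 96821 to 101807 and in BD+ICB 107280 to 110894. SD droplets were thus far shallower than ICB droplets, and the part of depth in their comparison was not tested. By the neighbours alone, 135 of the 140 deposited members (96.4%) got their class back, and 13 deposited cells of other classes were called proliferating cancer.

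**Figure D2:**
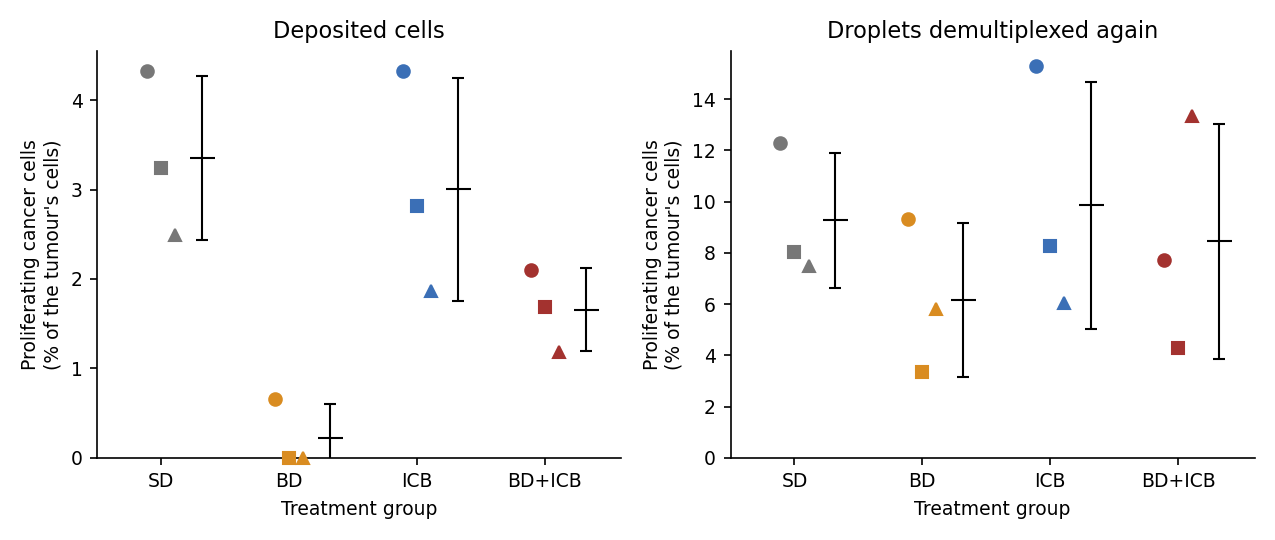
Share of proliferating cancer cells among the cells of each tumour, in percent, by group, for the deposited cells on the left and for the re-assigned droplets on the right. Points are tumours, and bars give the mean ± standard deviation (n = 3). The deposited BD tumours, from 0 to 0.660%, lie below the SD tumours, and the re-assigned ones, from 3.35% to 9.33%, overlap them.

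Levels within the class were compared between groups on UMIs summed per tumour, with edgeR's quasi-likelihood test over all 9613 genes past the filter on low counts. Tumours entered the fit with at least 10 members, which left SD 1, SD 3, ICB 1 to 3, BD+ICB 1 and BD+ICB 2. The smaller SD 2 (9 cells), BD+ICB 3 (6 cells) and BD 1 (2 cells) are given beside the fit, which they did not enter. A gene was called at a Benjamini-Hochberg adjusted p below 0.05. With BD+ICB against ICB, which share a library, 45 genes were higher (0.468% of those tested) and 57 lower (0.593%). With ICB against SD, 35 genes were higher (0.364%) and 18 lower (0.187%). Both comparisons use the same ICB tumours, so their values are given side by side.

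H2-K1 had the smallest adjusted p among the raised genes of both comparisons. The promoters of H2-K1, H2-D1, B2m and Irgm1, an interferon-gamma induced GTPase, are shown as examples of genes that rose in both. Other genes that rose in both are not shown. Each runs from 250 bases before to 50 after the start of a RefSeq transcript on GRCm38.p6. Capitals mark matches on either strand to the kappaB core GGGGANTCC (NF-kB) or the ISRE core, GAAA then any 2 bases then GAAA (interferon-regulated factors). The positions are chr17:34000298-34000597 (minus strand) for H2-K1, chr17:35262844-35263143 (plus) for H2-D1, chr2:122147437-122147736 (plus) for B2m and chr11:48871371-48871670 (minus) for Irgm1.
H2-K1: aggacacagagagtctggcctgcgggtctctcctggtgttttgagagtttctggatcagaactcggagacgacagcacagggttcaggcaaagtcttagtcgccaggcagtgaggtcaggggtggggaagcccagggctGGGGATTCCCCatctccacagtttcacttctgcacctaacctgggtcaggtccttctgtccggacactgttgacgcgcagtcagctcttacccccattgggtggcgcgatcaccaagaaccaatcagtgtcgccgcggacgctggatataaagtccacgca
H2-D1: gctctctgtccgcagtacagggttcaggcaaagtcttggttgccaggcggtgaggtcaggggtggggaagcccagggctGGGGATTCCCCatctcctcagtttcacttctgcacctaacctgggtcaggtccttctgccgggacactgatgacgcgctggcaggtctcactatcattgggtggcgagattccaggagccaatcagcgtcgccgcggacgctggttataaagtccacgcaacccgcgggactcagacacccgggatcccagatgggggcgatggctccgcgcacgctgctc
B2m: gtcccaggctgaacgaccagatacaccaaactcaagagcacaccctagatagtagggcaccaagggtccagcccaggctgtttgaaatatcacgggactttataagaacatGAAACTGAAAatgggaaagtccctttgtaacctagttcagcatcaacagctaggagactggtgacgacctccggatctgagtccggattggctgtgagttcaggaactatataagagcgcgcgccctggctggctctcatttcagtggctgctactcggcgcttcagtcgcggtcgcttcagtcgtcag
Irgm1: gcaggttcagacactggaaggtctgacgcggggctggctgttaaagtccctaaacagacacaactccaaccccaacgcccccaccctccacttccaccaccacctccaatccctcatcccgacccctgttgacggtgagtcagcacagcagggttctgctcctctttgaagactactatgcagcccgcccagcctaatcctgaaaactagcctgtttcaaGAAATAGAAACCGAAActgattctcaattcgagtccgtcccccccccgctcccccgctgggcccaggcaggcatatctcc
In H2-K1 and H2-D1 each strand holds a kappaB match within the same capitals. Of 27025 promoters of this length, 1.17% held the kappaB core and 3.49% the ISRE core. Of the 10 MHC class I genes called in ICB against SD, 9 had a promoter in the table. Of those, 2 held the kappaB core and 3 the ISRE core. Tap1 and Psme2, which also rose in both comparisons, held neither. A further motif, GAS (TTC then any 3 bases then GAA), was in 0 of the 9, against 8.47% of all promoters. A match describes these letters in this window only.

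H2-K1 (ENSMUSG00000061232) stood at 291, 319 and 277 CPM in SD tumours 1 to 3, at 278 in BD 1, at 774, 818 and 874 in ICB, and at 1432, 1303 and 1379 in BD+ICB. The 3 groups with replicates did not overlap, and the tumours outside the fit lay with those of their group. H2-K1 rose by 1.48 ± 0.105 (log2, SE) from SD to ICB (edgeR adjusted p = 1.1e-05) and by 0.82 ± 0.095 from ICB to BD+ICB (adjusted p = 0.000802). The other cells of the same tumours held higher levels and were in the same order of group means. They ranged from 712 to 1155 CPM in SD, from 1532 to 2180 in ICB and from 1908 to 2603 in BD+ICB, and mesenchymal cells from 214 to 440, from 1186 to 1534 and from 1250 to 2890. Whether the cancer cells differed from these in their response was not tested.

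H2-D1, the second classical heavy chain of this strain, stood at 431, 489 and 516 CPM in SD, at 1163, 1125 and 1193 in ICB and at 1704, 1590 and 1593 in BD+ICB. The groups were again apart, with log2 differences of 1.25 ± 0.107 (adjusted p = 6.7e-05) for ICB against SD and 0.59 ± 0.0995 (adjusted p = 0.0115) for BD+ICB against ICB, the order kept for the genes that follow. B2m, their common light chain, stood at 874, 822 and 929 CPM, at 1737, 1822 and 2154, and at 2568, 2553 and 2443 in the same order. It rose by 1.03 (adjusted p = 0.000219) and by 0.52 (adjusted p = 0.0217). Heavy chain genes of this family are close copies, so reads can be shared between them.

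Genes of the peptide route were also called. Tap1, one chain of the peptide transporter, stood at 17.6, 17.8 and 33.2 CPM in SD, at 61.4, 71.2 and 79.0 in ICB and at 177, 139 and 143 in BD+ICB, again without overlap. In ICB against SD and then BD+ICB against ICB, its log2 differences were 1.44 (adjusted p = 0.0174) and 1.27 (adjusted p = 0.0038). Tap2, the other chain, rose by 1.71 and 1.00, the proteasome activator subunits Psme1 by 0.94 and 0.91 and Psme2 by 0.90 and 0.80, and the nonclassical heavy chain H2-T22 by 1.27 and 1.15. Tapbp, which holds the heavy chain to the transporter, was called in ICB against SD, at 1.35 (adjusted p = 0.026), with 0.73 in BD+ICB against ICB (adjusted p = 0.113). H2-Q4 was called in the first at 1.35 (adjusted p = 0.045) and had 0.72 in the second (adjusted p = 0.126). Members that were called in neither include Psmb8, Psmb9 and Psmb10, the peptide-cutting subunits of the immunoproteasome, whose log2 values were 1.55, 1.52 and 1.31, then 0.91, 1.07 and 0.90. Nlrc5, the transactivator of class I genes, had 2.01 and 0.39, without a call.

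Of the 23 genes on the MHC class I list, all were tested. In BD+ICB against ICB 8 were raised and 0 lowered (13 and 0 by DESeq2, 18 and 0 at an unadjusted p below 0.05), with a median log2 difference of 0.82, against -0.0043 over all genes. In ICB against SD 10 were raised and 0 lowered (15 and 0 by DESeq2, 19 and 0 unadjusted), with a median of 1.35, against -0.0095 over all genes. Summed over the list, the level ranged from 3842 to 4161 CPM in SD, from 7031 to 8681 in ICB and from 10580 to 11544 in BD+ICB, with 3757 in BD 1. In BD+ICB 3, which the fit left out, all 8 genes raised in BD+ICB against ICB lay above every ICB tumour, as did 23.3% of all genes. In SD 2, also left out, all 10 lay below every ICB tumour, as did 35.5% of all genes. The means of the general leukocyte, macrophage and neutrophil marker sums ran the other way, from high in SD to low in BD+ICB, while T and NK cell markers were highest in BD+ICB 1, at 72.1 CPM, and lowest in SD 2, at 1.98. Among cells without a Ptprc UMI only BD+ICB 1 (10 cells) could be set against ICB 1 (25 cells) and ICB 3 (11 cells). All 8 kept their sign there, with H2-K1 at 0.80. These tumours were also in the main fit, and a single BD+ICB tumour gives no spread of its own. With at least 5 cells per tumour, which brings SD 2 and BD+ICB 3 into the fit, 8 genes were raised in BD+ICB against ICB (of 41, or 0.454% of 9025 genes) and 12 in ICB against SD (of 45, or 0.499%). In cells without a Ptprc UMI, SD could not be compared, since none of its tumours had 10 such cells.

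**Figure D3:**
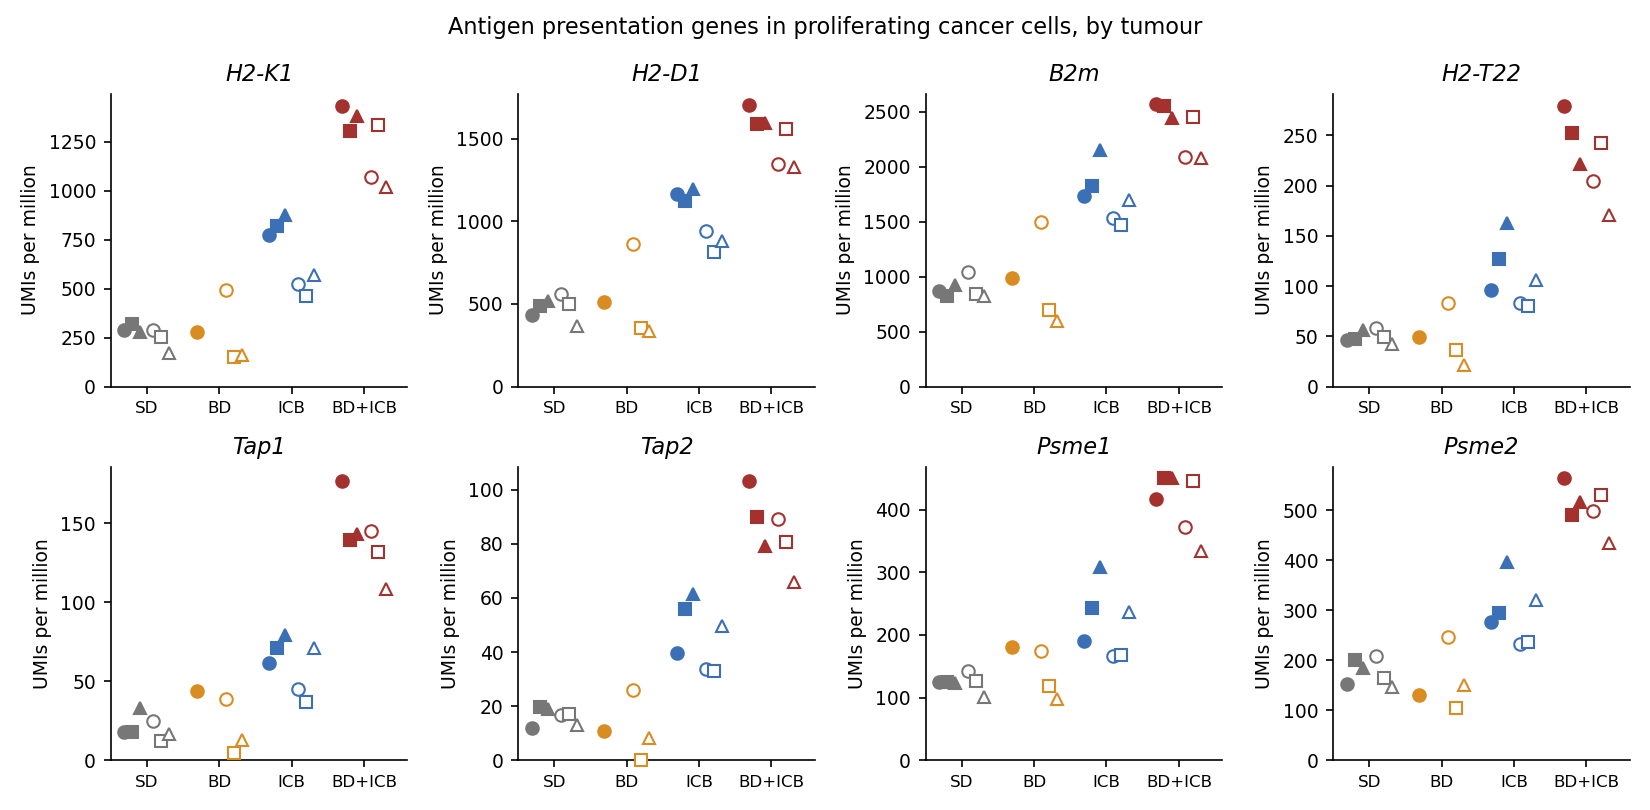
Levels of 8 MHC class I presentation genes in proliferating cancer cells by tumour, in CPM, each on an axis from 0. Filled symbols are the deposited cells and open symbols the re-assigned droplets, with circles, squares and triangles for replicates 1 to 3. Deposited H2-K1 lies from 277 to 319 in SD, from 774 to 874 in ICB and from 1303 to 1432 in BD+ICB.

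In the re-assigned droplets, H2-K1 stood at 287, 252 and 169 CPM in SD, 492, 149 and 162 in BD, 523, 465 and 572 in ICB and 1068, 1334 and 1019 in BD+ICB. BD+ICB, ICB and SD did not overlap, while BD 1 overlapped ICB. With all tumours of at least 10 droplets in the fit, H2-K1 had a log2 difference of 1.21 between BD+ICB and ICB (adjusted p = 0.195) and 1.06 between ICB and SD (adjusted p = 0.227). Of the list, 5 and 2 genes were raised there, of 87 (0.794%) and 31 (0.283%) raised among 10964 genes. Without the BD tumours, whose replicates BD 1 and BD 3 lay far apart, H2-K1 had 1.21 (adjusted p = 0.0342) and 1.06 (adjusted p = 0.0539), and 15 and 7 genes of the list were raised, of 126 (1.17%) and 74 (0.688%) among 10758.

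Of 25 other interferon-gamma targets listed, 22 were tested, with 3 raised in BD+ICB against ICB (median log2 difference 0.92) and 2 in ICB against SD (median 1.61), and 0 lowered in either. DESeq2 called 7 and 10 raised, and 12 and 14 were raised at an unadjusted p below 0.05. Irgm1 rose in both, by 1.21 (adjusted p = 0.0042) and by 1.67 (adjusted p = 0.011), and Irf1, a transcription factor of class I genes, by 0.61 and 1.57. Irf1 was not called with SD 2 and BD+ICB 3 in the fit (0.69, adjusted p = 0.289, and 1.15, adjusted p = 0.166). Gbp5, a GTPase of cell-autonomous defence, rose by 1.63 in BD+ICB against ICB, with 1.14 and no call in ICB against SD. Gbp2 and Cxcl10 were not called; Cxcl10, which draws T cells, stood at 176, 268 and 271 CPM in SD, 900, 419 and 844 in ICB, and 1444, 1130 and 2151 in BD+ICB. Of 25 type I interferon targets 19 were tested, and edgeR called 0 and 2 raised in the same order, DESeq2 1 and 3, with 4 and 11 raised at an unadjusted p below 0.05. The 2 were Bst2 (2.03), an antiviral tether, and Ifi35 (1.58) in ICB against SD. Cd274, which encodes PD-L1, was called in neither.

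**Figure D4:**
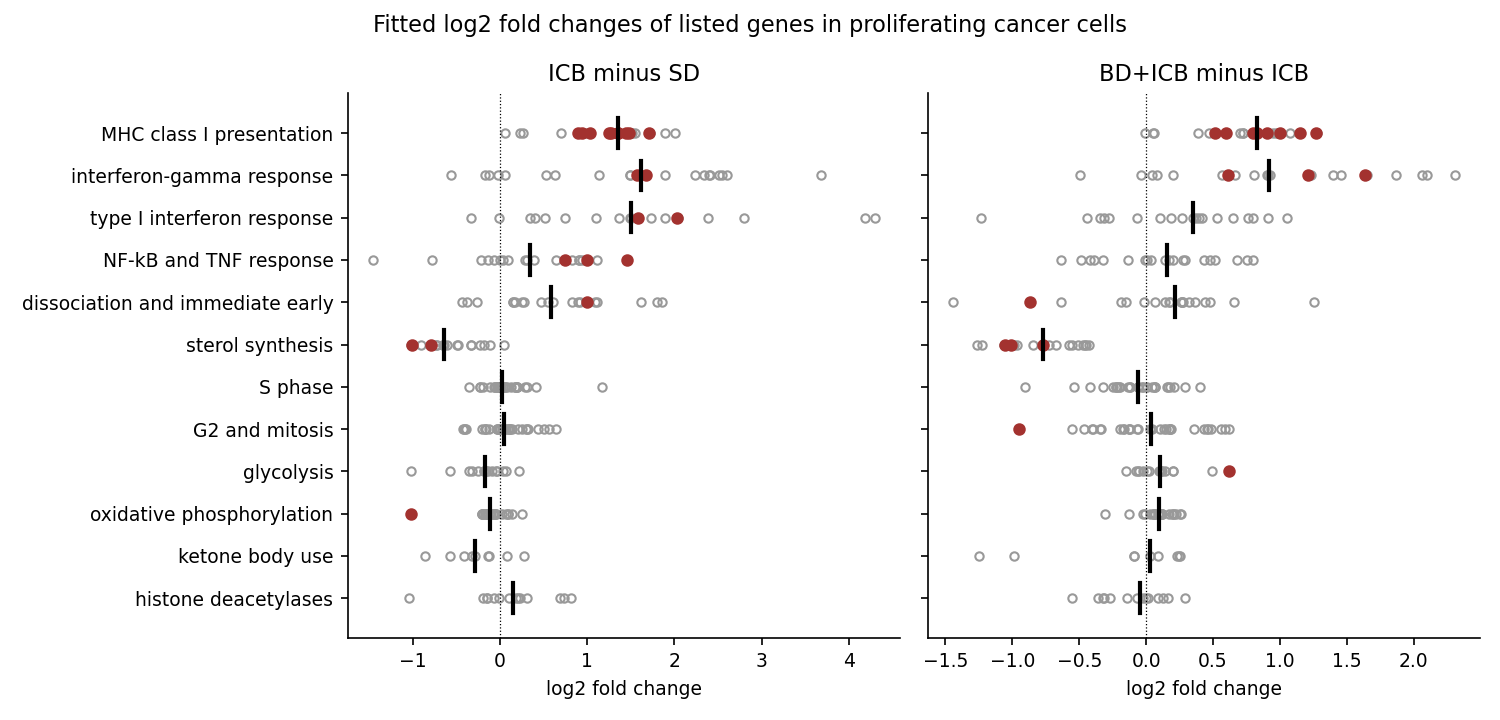
Fitted log2 fold changes of 12 gene lists in proliferating cancer cells, ICB minus SD on the left and BD+ICB minus ICB on the right. Each circle is a gene, red where called and open grey where not, and black bars are medians. The MHC class I list has medians of 1.35 and 0.82, while those of S phase are 0.02 and -0.06.

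Among further genes higher with BD+ICB, Serpina3f was called in each of 18 alternative settings. A minimum of 1000 UMIs per cell, 1 of the 18, kept every member and so repeated the main fit. Some others left BD+ICB with 1 tumour. Serpina3f encodes a secreted serine protease inhibitor and stood at 1.85, 0 and 2.21 CPM in SD, 0 in BD 1, 3.95, 4.25 and 8.83 in ICB, and 39.1, 27.0 and 28.6 in BD+ICB. All BD+ICB tumours lay above all others, with a log2 difference from ICB of 2.67 ± 0.332 (adjusted p = 0.00136). Gbp6, another interferon-induced GTPase, rose by 1.97, and Wars, the tryptophan tRNA synthetase, by 1.28. Has2, which makes hyaluronan, rose by 1.14. Col5a3, a type V collagen chain, rose by 1.10 and Cd44, the hyaluronan receptor, by 0.62. Wars (1.10, adjusted p = 0.00117) and Has2 (1.01, adjusted p = 0.00216) were also called in the re-assigned droplets. Not called there were Gbp6 (1.99, adjusted p = 0.108), Col5a3 (0.57, adjusted p = 0.112) and Cd44 (0.33, adjusted p = 0.106). Tm4sf1, a marker of the class, rose by 0.72 (adjusted p = 0.017) from 725, 741 and 805 CPM in ICB to 1365, 976 and 963 in BD+ICB. In the re-assigned droplets the Tm4sf1 difference was 0.08 (adjusted p = 0.864). Hk2, the hexokinase that starts glycolysis, was the 1 of 16 glycolysis genes called, at 0.62 (adjusted p = 0.028), with 0.69 and no call in the re-assigned droplets (adjusted p = 0.134).

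Fst, the leading gene of the class, was not called in either comparison. It stood at 203, 131 and 225 CPM in SD, 736 in BD 1, 583, 325 and 362 in ICB, and 1587, 734 and 1088 in BD+ICB. SD, ICB and BD+ICB did not overlap, while BD 1 lay within the range of BD+ICB. Yet the log2 difference between BD+ICB and ICB was 1.53 ± 0.448 with an edgeR adjusted p of 0.308, and that between ICB and SD 0.95 with 0.589.

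Mme was the gene most clearly lower with BD+ICB. It encodes neprilysin, or CD10, a membrane peptidase that degrades small peptide hormones. Mme (ENSMUSG00000027820) stood at 79.5, 87.2 and 97.4 CPM in SD, 43.6 in BD 1, 66.7, 48.9 and 56.1 in ICB, and 7.07, 7.24 and 22 in BD+ICB. All BD+ICB tumours lay below all others, with a log2 difference from ICB of -2.92 ± 0.255 (adjusted p = 0.000101), while ICB against SD gave -0.65 (adjusted p = 0.19). The re-assigned droplets gave -2.07 (adjusted p = 0.00586), from 39.6, 56.4 and 77.2 CPM in ICB to 9.88, 12.5 and 15.6 in BD+ICB. Mme was called in each of 18 alternative settings, of which 1 repeated the main fit and some left BD+ICB with 1 tumour. In the re-assigned droplets without the BD tumours Mme was 1 of 82 genes lowered (0.762%).

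Nr4a2, an orphan nuclear receptor of the immediate early kind, was also called in all 18. It stood at 112, 111 and 130 CPM in SD, 87.2 in BD 1, 97.2, 114 and 97.6 in ICB, and 25.0, 34.2 and 41.7 in BD+ICB, without overlap between BD+ICB and the rest. Its log2 difference from ICB was -1.72 ± 0.172 (adjusted p = 0.000239), and -1.19 in the re-assigned droplets (adjusted p = 0.000317). Its relative Nr4a1 was called at -0.87 (adjusted p = 0.0217), although BD+ICB 3, at 312 CPM, lay above all ICB tumours, and was not called with that tumour in the fit (-0.45, adjusted p = 0.627). Klhl40, a kelch-repeat protein known from muscle, fell from 23, 22.3 and 15.9 CPM in ICB to 2.83, 3.29 and 3.29 in BD+ICB (-2.65, adjusted p = 0.00227). Crabp1, a marker of the class, fell from 1703, 1418 and 1508 CPM to 793, 972 and 1224 (-0.72, adjusted p = 0.0202). It was not called with BD+ICB 3 in the fit (-0.55, adjusted p = 0.189).

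Also lowered were Cxcl12, a chemokine (-1.04), Dkk2, a secreted Wnt regulator (-0.85), the transcription factor Maf (-1.39), the death gene Bcl2l11 (-0.97) and Timp3, an inhibitor of matrix proteases (-1.84). With BD+ICB 3 in the fit Cxcl12 (-0.56, adjusted p = 0.576), Dkk2 (-0.53, adjusted p = 0.3) and Timp3 (-1.56, adjusted p = 0.058) were not called. Timp3 and Bcl2l11 were called in the re-assigned droplets, and Cxcl12, Dkk2 and Maf (-0.91, adjusted p = 0.111) were not. Malat1, a nuclear long noncoding RNA, was called at -0.73 (adjusted p = 0.0485), from 3481, 5003 and 4308 CPM in ICB to 2326, 2487 and 1746 in BD+ICB. Il1r2, on the neutrophil marker list, was called too, at -2.01 (adjusted p = 0.0472), with -0.80 in the re-assigned droplets (adjusted p = 0.429).

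Replication-dependent histone transcripts made up 16 of the 57 lowered genes, counted after the values were seen by symbols that begin with Hist. The counts hold 63 such symbols, and of all 9613 genes tested 0.593% were lowered. Hist1h1b, a linker histone, stood at 180, 123 and 230 CPM in SD, 305 in BD 1, 292, 418 and 285 in ICB, and 71.2, 72.4 and 254 in BD+ICB. The tumours BD+ICB 1 and BD+ICB 2 were low, and BD+ICB 3, outside the fit, was near ICB. The log2 difference of -2.11 ± 0.177 (adjusted p = 0.000101) became -1.30 (adjusted p = 0.395) with tumours of at least 5 cells and -0.74 (adjusted p = 0.454) in the re-assigned droplets. Of the 16 genes, 2 were called with at least 5 cells, of 34 lowered in all (0.377%), and 0 in the re-assigned droplets, of 45 lowered (0.41%). In BD+ICB 3, 10 of the 16 (62.5%) lay below every ICB tumour, as did 44.5% of all genes. The summed level of all such genes varied widely among cells of a tumour, from 210 to 10495 CPM in ICB 1 and from 408 to 1969 in BD+ICB 1. Histone genes are near copies of one another, so reads can be shared between them.

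Sterol synthesis genes had lower values with BD+ICB than with ICB throughout the list. Of 20 listed genes 19 were tested, and in BD+ICB against ICB 3 were lowered and 0 raised (4 and 0 by DESeq2, 14 and 0 at an unadjusted p below 0.05), with all 19 differences negative and a median of -0.77. Cyp51, the sterol demethylase, fell by 1.05 on the log2 scale (adjusted p = 0.0043), from 134, 139 and 175 CPM to 73.1, 61.2 and 127, below every ICB tumour in all 3. Idi1, which makes the prenyl precursor, fell by 1.01 and Sqle, squalene epoxidase, by 0.77. In ICB against SD 2 were lowered, Cyp51 at -0.79 and Insig1, a sterol sensor, at -1.0, with a median of -0.64. The same comparison in the re-assigned droplets gave 0 calls by edgeR, a median of -0.11 and 5 of 19 positive values, with Cyp51 at -0.11 (adjusted p = 0.936) and Insig1 at -0.53 (adjusted p = 0.431). With at least 5 cells per tumour edgeR called 0 of the 19 in BD+ICB against ICB, with a median of -0.51, and in the re-assigned droplets 1 was called, with a median of -0.69. In ICB against SD with at least 5 cells, 1 was lowered, with a median of -0.54, and Cyp51 was not called (-0.63, edgeR adjusted p = 0.429). The summed level ranged from 1595 to 1909 CPM in SD, 1030 to 1500 in ICB and 595 to 1084 in BD+ICB, where the last 2 groups overlapped.

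**Figure D5:**
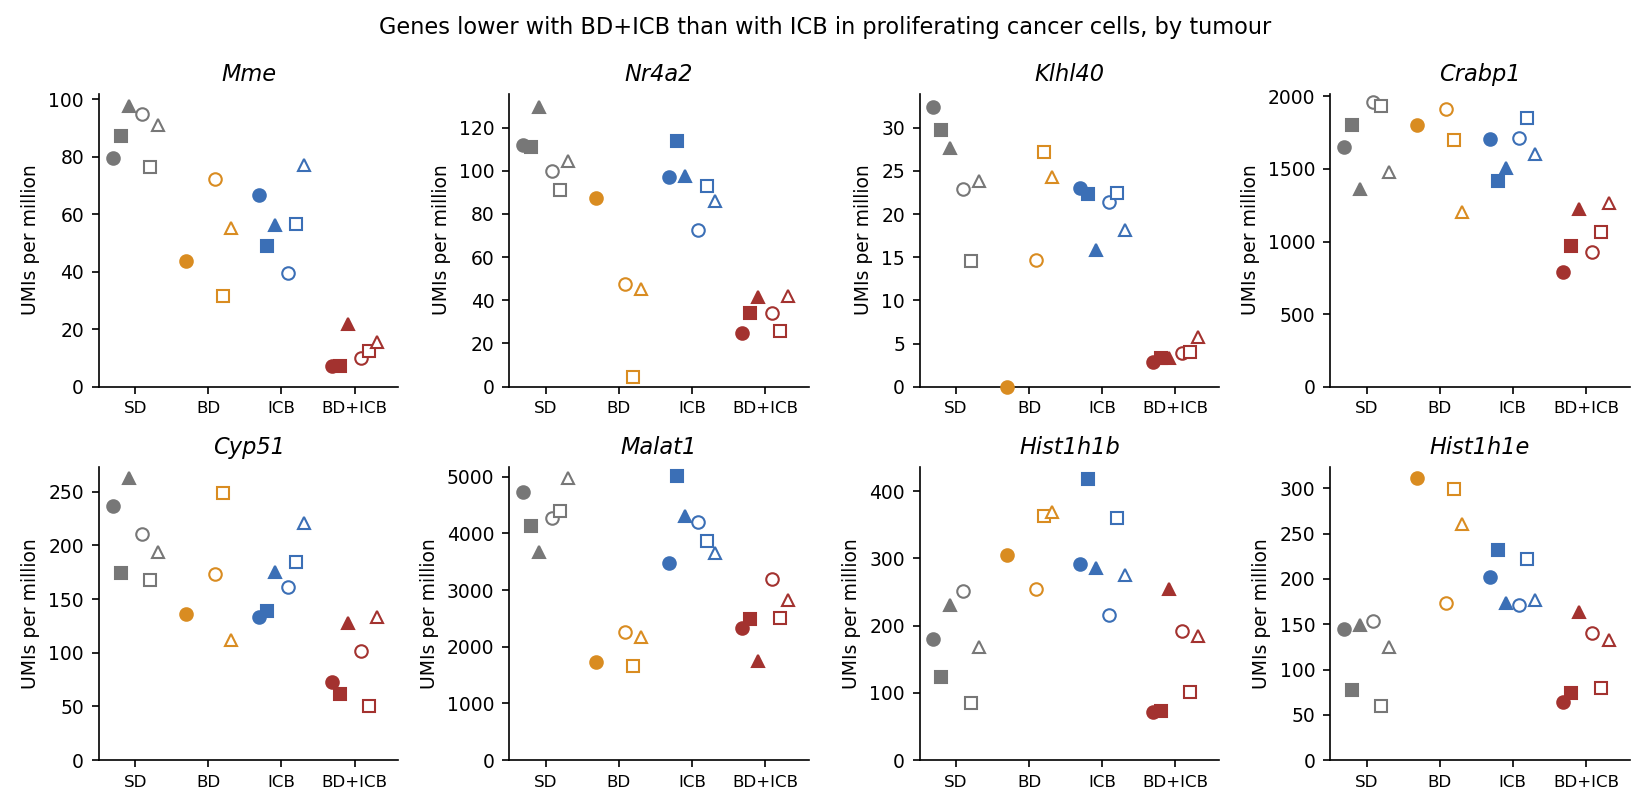
Levels of 8 genes lower with BD+ICB than with ICB in proliferating cancer cells, by tumour, in CPM on axes from 0. Filled symbols are the deposited cells and open symbols the re-assigned droplets, with circles, squares and triangles for replicates 1 to 3. Mme lies from 7.07 to 22 in deposited BD+ICB tumours and from 48.9 to 66.7 in ICB, while Hist1h1b of BD+ICB 3, at 254, lies near ICB.

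Beyond MHC class I, ICB against SD gave calls among genes of the NF-kB response, and 1 on a list of genes known to rise on tissue dissociation. Of 20 NF-kB genes listed, 3 were raised and 0 lowered, with a median log2 difference of 0.35. Tnfaip3, or A20, an inhibitor of NF-kB and one of its targets, stood at 58.2, 69.4 and 81.9 CPM in SD and at 208, 192 and 192 in ICB, with no overlap. It rose by 1.45 (adjusted p = 0.000343) and was called in each of 18 alternative settings, of which 1 repeated the main fit and some left SD with 1 tumour. Nfkbia, another inhibitor, rose by 0.75, and Zfp36, which speeds the decay of cytokine mRNA, by 1.00. Of the 20 genes known to rise on tissue dissociation, 1 was raised, Zfp36, which both lists hold. The dissociation list had a median of 0.58 and 17 positive values. DESeq2 called 4 genes raised on each list, and 8 on each were raised at an unadjusted p below 0.05. The part of tissue dissociation was not tested. Mt2, a metallothionein, and Ndrg1, a gene of the hypoxia list, rose by 0.84 and 0.94. Nfkbia was called in the re-assigned droplets (0.49, adjusted p = 0.0269), while Zfp36 (0.51, adjusted p = 0.287), Ndrg1 (0.49, adjusted p = 0.351) and Mt2 (0.12, adjusted p = 0.889) were not.

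Of the genes lowered in ICB against SD, Myl9, a myosin light chain, stood at 34.2, 33.7 and 57.6 CPM in SD and 9.76, 10.6 and 14.6 in ICB (-2.02, adjusted p = 0.00463). It was not called with SD 2 in the fit (-1.90, adjusted p = 0.206) or in the re-assigned droplets (-0.80, adjusted p = 0.57). Ccn2, a matrix signalling protein, fell by 1.87 on the log2 scale, although SD 2, at 71.3 CPM, was below ICB 1, at 92.8. Mxra8 (-1.02), Matn2 (-0.97), Col18a1 (-1.03) and the protease Adam12 (-2.90) were lowered as well. In the re-assigned droplets none of these 4 was called, with -0.51, -0.47, -0.61 and -1.69 in that order (lowest adjusted p = 0.101), nor was Ccn2 (-1.45, adjusted p = 0.265). Of 18 matrix and protease genes 1 was lowered here and 10 had positive values, and of 10 mesenchymal markers 0 were called. The mesenchymal marker sum ranged from 4196 to 6051 CPM in SD and from 3891 to 4673 in ICB. Ndufa4, a subunit tied to cytochrome oxidase, fell from 1227, 1193 and 1289 CPM to 745, 656 and 517 (-1.02, adjusted p = 0.00321) and was the 1 of 26 oxidative phosphorylation genes called. It was also lowered in the re-assigned droplets (-0.80, adjusted p = 0.0183), where 65 genes were (0.593%), and there without the BD tumours (-0.80, adjusted p = 0.00496), where 132 were (1.23%), while with at least 5 cells per tumour 16 were (0.177%).

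The cell cycle lists, which define the class, gave 1 call in all between groups. Of 28 S phase genes 0 were called in either comparison, with medians of -0.06 for BD+ICB against ICB and 0.02 for ICB against SD. At an unadjusted p below 0.05 there were 2 lowered in the first and 2 raised in the second, and DESeq2 called 0. Of 32 genes of G2 and mitosis, 1 was lowered in the first, the kinetochore gene Ndc80 (-0.95), and 0 were called in the second, with medians of 0.04 and 0.05. At an unadjusted p below 0.05 there were 12 and 4, and DESeq2 called 0 and 1. Mki67 stood at 197, 186 and 203 CPM in SD, 278 in BD 1, 228, 246 and 286 in ICB, and 181, 180 and 155 in BD+ICB, so BD+ICB lay below ICB in all 3 tumours. The log2 difference of -0.40 did not pass the test (adjusted p = 0.168). Summed S phase levels ranged from 2212 to 2451 CPM in SD, 2201 to 2806 in ICB and 2099 to 2939 in BD+ICB, which overlapped.

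Genes that handle ketone bodies were measured because butanediol is turned into them. Of 13 listed, 9 were tested and 0 were called in either comparison, with medians of 0.03 for BD+ICB against ICB and -0.29 for ICB against SD. At an unadjusted p below 0.05 there were 2 in each, and with DESeq2 0. Oxct1, the enzyme that lets a cell burn ketone bodies, ranged from 188 to 354 CPM over the 10 tumours with members, and differed by 0.03 and -0.12 in that order. Bdh1, which turns beta-hydroxybutyrate into acetoacetate, had 3 UMIs in the class. Beta-hydroxybutyrate is also known as an inhibitor of histone deacetylases. Of 15 deacetylase genes 14 were tested and 0 called by edgeR or DESeq2, which gave no adjusted p for 6 and 3 of them. Their medians were -0.04 and 0.15, and 1 in each comparison had an unadjusted p below 0.05. Of 18 genes known to rise with deacetylase inhibitors 14 were tested. In BD+ICB against ICB 1 was lowered, the linker histone H1f0 (-0.89, adjusted p = 0.0224), with a list median of 0.05. With BD+ICB 3 in the fit H1f0 had -0.44 (adjusted p = 0.634), and in the re-assigned droplets it was not called either (adjusted p = 0.436). The 1 raised in ICB against SD was Mt2, with a list median of 0.18. Krt8 stood at 983, 853 and 1092 CPM in ICB and 570, 418 and 516 in BD+ICB, apart in all 3 tumours, with a log2 difference of -0.89 that did not pass the test (adjusted p = 0.355).

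Of 22 death and survival genes tested, 2 were called in BD+ICB against ICB and 0 in ICB against SD. Bak1, which opens the outer mitochondrial membrane, was raised (0.83, adjusted p = 0.0178), and Bcl2l11, which encodes the death activator BIM, was lowered. DESeq2 called 0 of the list in that comparison, and with BD+ICB 3 in the fit Bak1 was not called (0.65, adjusted p = 0.128). In ICB against SD DESeq2 called 1 of them, and 5 had an unadjusted p below 0.05. Gclm, a subunit of the enzyme that starts glutathione synthesis, was the 1 of 16 antioxidant genes called (0.64, adjusted p = 0.0404), with 0.44 in the re-assigned droplets (adjusted p = 0.22). Ddit4, an inhibitor of mTORC1 signalling, was the 1 of 18 hypoxia genes lowered (-1.0, adjusted p = 0.0341). DESeq2 lowered 0 of that list, and Ddit4 had -0.30 in the re-assigned droplets (adjusted p = 0.678). Of 18 matrix and protease genes 1 was raised and 2 were lowered in BD+ICB against ICB, with 13 negative values. The raised gene was Plaur, the urokinase receptor (0.75, adjusted p = 0.0185), and the lowered ones Timp3 and Col18a1. Plaur was not called with BD+ICB 3 in the fit (adjusted p = 0.155) or in the re-assigned droplets (adjusted p = 0.142). Of 12 tested immune checkpoint ligands edgeR called 0 in either comparison, DESeq2 called 2 in BD+ICB against ICB and 1 in ICB against SD, and 4 and 2 had an unadjusted p below 0.05. Of 17 tested genes of epithelial-mesenchymal transition edgeR called 0 in either, DESeq2 called 1 and 2, and 5 and 3 had an unadjusted p below 0.05.

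BD and SD could be compared only in the re-assigned droplets, where BD 1 and BD 3 had at least 10. Among 10964 genes edgeR called 0 higher in BD and 2 lower (0.0182%), while 300 and 454 had an unadjusted p below 0.05. DESeq2 was not run for this comparison. Malat1 stood at 4268, 4403 and 4982 CPM in SD and 2253, 1657 and 2173 in BD, apart in all tumours (-1.05 ± 0.102, edgeR adjusted p = 0.000137). Gm42418, a predicted gene that overlaps ribosomal RNA, was called at -0.52 (adjusted p = 0.026), although BD 2, outside the fit with 6 droplets, had the highest level of both groups. No MHC class I gene was called here, and without BD 1 the count of called genes was 48. A count this low from 2 BD tumours does not show that the groups were alike.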

How the data were processed

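UMI counts per gene and cell, the class of each cell and its tumour were taken as deposited by the authors. Cell Ranger 6.1.1 made the matrices, per the file headers, with EGFP and tdTomato added to the reference, and the submitters' processing notes name mm10 and R 4.1; the naming of clusters and the assignment of hashtags are not described in those sources. The percent of mitochondrial UMIs is the authors' deposited value, under 5 in every deposited cell. Whether doublets were removed is not given either, and no doublet caller was run; 16 members had a top hashtag under 3 times the second.

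UMIs of the class were summed per tumour, and tumours of at least 10 members were fitted together (edgeR 4.0.16, TMM, filterByExpr, robust quasi-likelihood, R 4.3.3), with the 3 groups in 1 model. The script was tested on simulated counts. Class UMIs per fitted tumour ran from 903157 to 4301666, and 910590, 504611 and 183391 were those of BD+ICB 3, SD 2 and BD 1. Shares were tested by exact permutation of diet labels within library, with floors of 3 counts that cover counting error only. For the re-assignment, a droplet took its top hashtag if that had at least 10 counts and 3 times the second, with under 5% mitochondrial UMIs and at least 250 genes. Deposited cells kept their class. Any other droplet took the class most common among its 15 nearest deposited neighbours on 30 principal components of 2000 genes.

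Named were up to 12 raised and 12 lowered genes with the smallest adjusted p per comparison, up to 4 called members of each list, the 5 markers, the tested genes of the MHC class I, ketone body and deacetylase lists, and the 20 leading genes; Gbp2, Cxcl10, Cd274 and the group of symbols beginning with Hist were chosen after their values were seen. The members and lists were chosen with earlier results of these data known. DESeq2 1.42.0, other filters and left-out tumours were alternatives.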

Additional observations from a re-analysis of the deposited data

Results flagged for a closer look

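Reporter transcripts were found in droplets outside the deposited cells. Of 754 further droplets named proliferating cancer by their neighbours, 126 had an EGFP UMI, or 16.7% (95% exact Clopper-Pearson interval 14.1 to 19.6), and 239 a tdTomato UMI, or 31.7% (28.4 to 35.2). Both shares were above those in the deposited cells of the 17 other classes, where 6 of 5368 cells (0.112%) had EGFP and 4 (0.0745%) had tdTomato. In the 140 deposited members the shares were 27.9% and 47.1%. Mesenchymal cells held the reporters too, at 8.30% and 16.2% of deposited cells and 3.12% and 8.48% of further droplets of that name. The intervals treat droplets pooled over tumours as independent, so they leave out the spread between tumours. Median depth was 55788.5 UMIs in the further droplets, 108624 in the deposited members and 6902 in the other classes, and its part in the shares was not tested. Groups of 3 tumours are too small for the test of single outlying samples.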

How the results depend on the processing

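The count of genes called in BD+ICB against ICB was 102, and it was 415 with no filter on low counts, 64 with a stricter hashtag rule, 67 in cells without a Ptprc UMI, and 208 in the re-assigned droplets without the BD tumours, a setting chosen after seeing the data. Of the 45 raised and 57 lowered, 14 and 17 were called again in the re-assigned droplets. Leaving out 1 tumour gave from 35 (without ICB 2) to 116, with 48 without BD+ICB 1. In ICB against SD the count was 53, and it was 96 with DESeq2, 293 with no filter, 29 with the stricter hashtag rule, 96 in the re-assigned droplets and 206 there without the BD tumours. Of the 35 raised and 18 lowered, 6 and 3 were called again in the re-assigned droplets, and 13 and 3 without the BD tumours. Leaving out 1 tumour gave from 18 (without SD 1) to 69, with 26 without SD 3. Where SD or BD+ICB was left with 1 tumour, that tumour was assumed to vary like the others. BD against SD had 2 calls, 1 with at least 5 droplets per tumour, and from 1 to 48 when 1 tumour was left out. With the tumour number as a replicate block the counts were 174 and 134; same-numbered tumours correlated at -0.10, -0.07, 0.01, 0.15 and 0.17, so the numbers were not taken to pair them.

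The diet difference in share was 0.360 points among cancer and mesenchymal cells (-14.9 and 15.6 within the libraries), -3.86 without neutrophils (adjusted exact p = 0.0475), and from -2.52 (without ICB 3, adjusted exact p = 0.0475) to -1.91 with 1 tumour left out. The ICB minus SD difference was 27.4 points among cancer and mesenchymal cells (exact p = 0.1), 0.582 in the re-assigned droplets, and from -1.02 to 0.216 with 1 tumour left out (0.134 without SD 1, 0.216 without ICB 3).

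For the named genes, 716 of 971 values under alternatives in BD+ICB against ICB and 574 of 756 in ICB against SD kept their sign and side of the threshold; 249 and 169 kept the sign only, and 1 and 10 changed sign, none of them called. Among the 716 and 574 are 54 and 42 values from the setting of at least 1000 UMIs per cell, which repeated the main fit. Of the values that changed sign, Top2a in BD+ICB against ICB had 0.11 under the stricter hashtag rule. In ICB against SD, Crabp1 had -0.010, with 0.033 under no filter, 0.067 under the stricter hashtag rule, 0.0064 with only the SD and ICB tumours, and from -0.12 (without SD 3) to 0.13 (without SD 1) with 1 tumour left out. Krt8 there had 0.17, with -0.18 at 15 cells or more per tumour and from -0.18 (without SD 3) to 0.69 (without SD 1) with 1 tumour left out.

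Not run were at least 15 cells for BD+ICB against ICB, since no BD+ICB tumour had as many, and cells without a Ptprc UMI for ICB against SD. The number of cells limits BD, since 2 deposited members allow no fit.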
